A study of Homo sapiens with 3 samples.

Results

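The machinery that copies DNA was examined in KMS11, an established human multiple myeloma cell line with the t(4;14) translocation, after infection with hairpins against MMSET, now called NSD2. NSD2 encodes an enzyme that methylates histone H3, and this translocation places its gene under immunoglobulin enhancers. The gene set holds 53 genes of replication initiation and of the replication fork, named as a list of symbols. They are 53 of 19775 genes that a probe set with a single symbol represents on the array, and of several probe sets per gene the 1 with the highest mean signal over the 3 arrays was used. All 53 had such a probe set. Cells were infected with lentiviruses that carried the short hairpin RNA shMMSET#2, shMMSET#4 or shLuc, and RNA was taken at 48 h. The shLuc hairpin, by its name against luciferase, is the control, and all 3 cultures are the same line with the same translocation, the same virus system and polybrene. No selection of infected cells is named in the labels. Each group had 1 array, so no p-value was computed, differences are described by size, and the number of arrays limits the precision.

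DNA replication starts in G1, when the origin recognition complex, CDC6 and CDT1 load the MCM2-MCM7 helicase onto origins, a step called licensing. In S phase, kinases recruit CDC45 and the GINS complex, which turn the loaded helicase on, and DNA polymerases, the PCNA clamp and its RFC loader then copy both strands. Many of these genes are textbook targets of E2F transcription factors, which are restrained by retinoblastoma family proteins until cells commit to S phase. In proliferating myeloma lines this machinery is used in every cycle.

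The NSD2 signal on its brightest probe set was 7032 with shMMSET#2 and 7476 with shMMSET#4, against 10300 with shLuc. These signals were 1.46-fold and 1.38-fold under shLuc, short of the 1.5-fold call used below. The log2 ratios of the 6 NSD2 probe sets lay between -2.69 and -0.54 for shMMSET#2, and between -1.62 and 0.05 for shMMSET#4. All 9 plasma cell and myeloma markers examined were above the signal floor of 41.2 on every array, with summed signals of 71755 with shMMSET#2 and 100625 with shMMSET#4, against 113375 with shLuc. Of the 9, 5 were called lower with shMMSET#2, and 1 was called lower and 2 higher with shMMSET#4. FGFR3, whose gene lies on the other product of the translocation, had 24596 and 33063, against 34952 with shLuc. Markers of other cells were dim: summed signals were 189, 170 and 258 for MS4A1, PAX5 and CD22 (B cells) with shMMSET#2, shMMSET#4 and shLuc, 142, 129 and 219 for CD3D, CD3E and CD2 (T cells), and 39.9, 8.74 and 94.1 for CD14 and LYZ (monocytes). Of the epithelial markers, KRT19 was under the floor on every array, whereas EPCAM had signals of 4391, 10651 and 8099. The 3' probe set of ACTB exceeded the 5' probe set by 1.14, 1.14 and 1.70 on the log2 scale on the shMMSET#2, shMMSET#4 and shLuc arrays, and 41.2%, 42.6% and 36.2% of probe sets were at or under the floor. The part of these differences between arrays in the results that follow was not tested. In bulk RNA, fewer cells of a kind, such as cells in S phase, and less RNA per cell cannot be told apart.

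The replication genes lay mostly above their shLuc level with either hairpin. Below it with both were 6 genes (ORC3, ORC6, DBF4, POLA1, RFC1 and RPA1), none of them by as much as the call requires. A gene was called higher or lower when its floored signal was at least 1.5-fold from shLuc. With shMMSET#2, 30 of the 53 were called higher, against 16.2% of the 13296 genes tested, and 1 was called lower, against 22.5%. With shMMSET#4, 28 were called higher, against 17.3% of the genes tested, and none lower, against 20.6%. The median log2 ratio over the 53 was 0.62 with shMMSET#2 and 0.66 with shMMSET#4, beside -0.04 and -0.02 over all genes tested. There were 23 genes called higher with both hairpins (8.6% of all genes tested) and 0 called lower with both (11.9% of all genes tested). Both ratios divide by the same shLuc array, so a property of that array and an effect common to the hairpins cannot be told apart. All 53 passed the filter on dim genes, but CHAF1B was under the median signal of the shLuc array and passed only through the hairpin arrays. Without CHAF1B, 29 of 52 were called higher with shMMSET#2, 27 with shMMSET#4 and 22 with both. With arrays rescaled to equal medians, the median of all genes tested was 0.25 with shMMSET#2 and 0.34 with shMMSET#4, and that of the replication genes was 0.94 and 1.04.

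**Figure D1:**
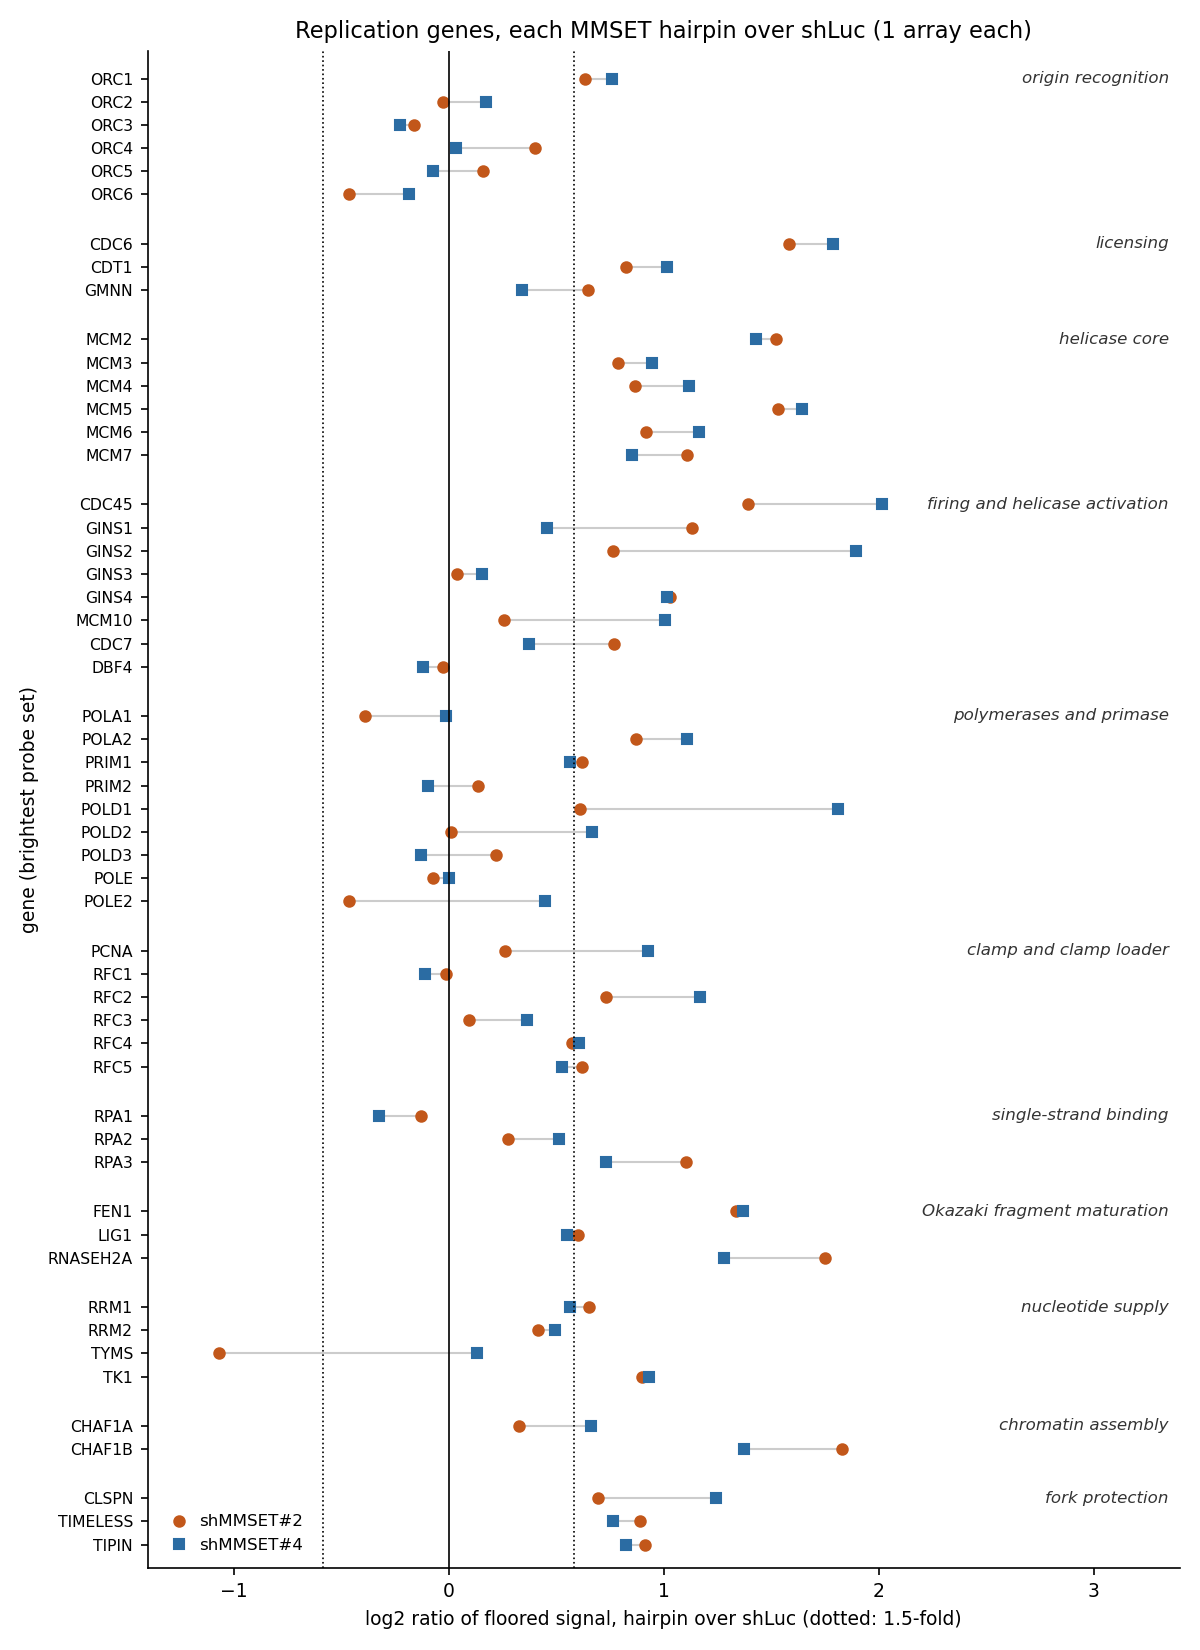
Log2 ratio of the floored signal, shMMSET#2 (circles) and shMMSET#4 (squares) over shLuc, for the brightest probe set of each of the 53 genes, ordered by role, with 1 array per group. The 6 helicase core genes lie right of the dotted 1.5-fold line with both hairpins, whereas ORC2 to ORC6 lie inside it and TYMS lies left of it with shMMSET#2.

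Origin recognition and licensing genes differed in how many were called. Of the 6 subunit genes of the origin recognition complex, which marks origins, only ORC1 was called higher on the deposited scale, with signals of 783 with shMMSET#2 and 854 with shMMSET#4, against 505 with shLuc. ORC2, ORC3, ORC4, ORC5 and ORC6 were all within 1.38-fold of shLuc on both hairpin arrays. After scaling to equal medians, ORC4 passed the call with shMMSET#2 (log2 ratio of 0.72). ORC3 and ORC6 had log2 ratios of -0.16 and -0.47 with shMMSET#2 and of -0.23 and -0.19 with shMMSET#4; all but the -0.47 turned positive under that scaling. CDC6, the ATPase that loads the helicase together with CDT1, had signals of 1894 and 2180 with shMMSET#2 and shMMSET#4, against 632 with shLuc, with log2 ratios of 1.58 and 1.79. CDT1 had 3479 and 3977, against 1965 with shLuc (1.77-fold and 2.02-fold higher). Its other, dimmer probe set was 1.29-fold and 1.33-fold above shLuc, short of the call with either hairpin. Both hairpin arrays were above shLuc for these 2 loading factors. GMNN encodes geminin, the inhibitor of CDT1, and had 7489 with shMMSET#2 (1.57-fold higher) and 6050 with shMMSET#4 (1.26-fold), against 4783 with shLuc.

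The 6 genes of the helicase core were all called higher with both hairpins, also under every scaling, floor and filter tried. The exception among choices of probe set was MCM6, whose dimmer probe set had log2 ratios of -0.10 with shMMSET#2 and 1.10 with shMMSET#4, and MCM2 and MCM7 have _s_at probe sets only. MCM2 had signals of 5904 with shMMSET#2 and 5543 with shMMSET#4, against 2055 with shLuc (2.87-fold and 2.70-fold higher). MCM5 had 4428 and 4784, against 1534 with shLuc (2.89-fold and 3.12-fold). These 2 subunits, which form the gate through which the ring closes around DNA, had the largest ratios of the 6 on the brightest probe sets, although other MCM4 probe sets reached 2.84-fold with shMMSET#2 and 3.57-fold with shMMSET#4. MCM3 had 7303 and 8160, against 4233 with shLuc (1.73-fold and 1.93-fold). MCM4 had 4371 and 5199, against 2399 (1.82-fold and 2.17-fold). MCM6 had 8263 and 9802, against 4374 (1.89-fold and 2.24-fold). MCM4, MCM6 and MCM7 are the subunits that retain helicase activity as a subcomplex in vitro, and MCM7 had 6370 with shMMSET#2 and 5330 with shMMSET#4, against 2950 with shLuc (2.16-fold and 1.81-fold). In each of the 6 the hairpin arrays were within 1.20-fold of each other, while shLuc was below both.

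Because these genes lay above shLuc together, the 250 bases before the gene start were searched in RefSeq promoter windows (GRCh38.p14), which were found for 47 of the 53 genes. MCM4, MCM5, GINS4, POLD3, RPA2 and RPA3 were not among them. For 11 genes with several starts the first listed was used. The E2F words TTTCCCGC, TTTCGCGC, TTTGCCGC and TTTGGCGC, on either strand, occurred in 13 of 47 windows (27.7%), beside 4.30% of the 10722 windows of tested genes and 2.79% of all 27305 windows. Among the 19 genes with a window that were called higher with both hairpins, 6 held a word (31.6%), and among the 28 others, 7 did (25.0%). CCAAT, on either strand, occurred in 57.4% of the 47 windows, 35.3% of those of tested genes and 33.0% of all windows. The E-box CACGTG occurred in 12.8%, 8.80% and 6.49%, and the cell cycle element TTTGAA or TTCGAA in 4.26%, 10.2% and 14.6%. Between the 19 genes called higher with both hairpins and the 28 others, the shares were 57.9% and 57.1% for CCAAT, 21.1% and 7.14% for the E-box, and 5.26% and 3.57% for the cell cycle element. A match is a description of the letters only.

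5 windows are shown 5′ to 3′ on the gene's strand, ending at the base before the start, with E2F words in capitals. MCM6 (chr2:135876444-135876693, minus strand), CDT1 (chr16:88803539-88803788, plus strand) and GINS2 (chr16:85688955-85689204, minus strand) were called higher with both hairpins and hold a word. CDC6 (chr17:40287629-40287878, plus strand) was called higher with both and holds none of the 4, although its window, like that of CDT1, contains the related letters tttggcgg, which were not searched. POLE (chr12:132687343-132687592, minus strand) holds a word and was within 1.05-fold of shLuc. In MCM6 the words on opposite strands overlap in pairs, starting at bases -152 and -148 and at -90 and -86 from the start.
MCM6: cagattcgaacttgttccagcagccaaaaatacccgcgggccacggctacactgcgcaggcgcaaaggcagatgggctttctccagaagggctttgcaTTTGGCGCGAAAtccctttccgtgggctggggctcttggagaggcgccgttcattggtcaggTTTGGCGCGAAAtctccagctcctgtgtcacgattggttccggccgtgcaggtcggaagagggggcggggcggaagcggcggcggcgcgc
CDT1: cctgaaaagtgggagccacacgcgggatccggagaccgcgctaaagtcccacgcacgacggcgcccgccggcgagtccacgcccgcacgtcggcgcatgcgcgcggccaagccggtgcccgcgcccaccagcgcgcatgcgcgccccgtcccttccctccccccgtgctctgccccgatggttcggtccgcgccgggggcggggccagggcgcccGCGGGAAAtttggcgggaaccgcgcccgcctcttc
GINS2: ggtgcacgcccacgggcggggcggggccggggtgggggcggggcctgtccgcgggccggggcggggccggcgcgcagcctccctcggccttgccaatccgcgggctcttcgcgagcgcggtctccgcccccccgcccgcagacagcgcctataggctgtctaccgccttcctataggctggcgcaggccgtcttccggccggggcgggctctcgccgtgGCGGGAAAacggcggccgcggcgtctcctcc
CDC6: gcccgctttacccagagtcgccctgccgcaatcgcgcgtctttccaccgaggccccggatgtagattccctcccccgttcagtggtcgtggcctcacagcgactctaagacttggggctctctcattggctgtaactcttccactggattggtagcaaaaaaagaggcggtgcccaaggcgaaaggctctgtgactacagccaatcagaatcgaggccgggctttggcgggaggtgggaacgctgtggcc
POLE: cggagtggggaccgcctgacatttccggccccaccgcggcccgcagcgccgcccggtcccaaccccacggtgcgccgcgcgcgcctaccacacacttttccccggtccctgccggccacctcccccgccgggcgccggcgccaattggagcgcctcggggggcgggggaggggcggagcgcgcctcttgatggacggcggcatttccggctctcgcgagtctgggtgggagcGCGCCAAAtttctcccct

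Helicase activation was less uniform than the helicase core. CDC45, the activator that binds the MCM ring, had signals of 881 with shMMSET#2 and 1357 with shMMSET#4, against 335 with shLuc (2.63-fold and 4.05-fold higher). The GINS complex has 4 subunits. GINS2 had 1488 and 3261, against 877 with shLuc (1.70-fold and 3.72-fold higher), and GINS4 had 551 and 544, against 269 (2.04-fold and 2.02-fold). GINS1 was called higher with shMMSET#2 alone, with 6756 and 4244, against 3088 with shLuc (2.19-fold and 1.37-fold). GINS3 was within 1.11-fold of shLuc on its brightest probe set, and a second one gave log2 ratios of 0.66 and 0.55. Of the complex, GINS2 and GINS4 were thus called higher with both hairpins, and 2 dimmer GINS4 probe sets lay under shLuc. MCM10, a scaffold that joins the helicase at firing, had 1455 with shMMSET#2 and 2442 with shMMSET#4, against 1215 with shLuc (1.20-fold and 2.01-fold). CDC7, the kinase that phosphorylates the MCM ring, had 1248 and 950, against 733 (1.70-fold and 1.30-fold), while its activator DBF4 was within 1.09-fold of shLuc.

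The polymerase subunits were split. POLA2, the regulatory subunit of the priming polymerase alpha, had signals of 588 with shMMSET#2 and 693 with shMMSET#4, against 322 with shLuc (1.83-fold and 2.16-fold higher), whereas the catalytic subunit gene POLA1 was 1.31-fold and 1.01-fold under shLuc. PRIM1, the catalytic primase subunit, was 1.54-fold and 1.48-fold above shLuc, and PRIM2, its partner, was within 1.10-fold. POLD1, the catalytic subunit of the lagging-strand polymerase delta, had 750 with shMMSET#2 and 1717 with shMMSET#4, against 490 with shLuc (1.53-fold and 3.50-fold higher). With shMMSET#2 it was just past the threshold. Its partner POLD2 was called higher with shMMSET#4 alone (1.59-fold, and 1.01-fold with shMMSET#2), and POLD3 was within 1.16-fold of shLuc on its brightest probe set. A dim second POLD3 probe set was 3.30-fold higher with shMMSET#2 and 3.05-fold with shMMSET#4, with shLuc under the floor. For the leading-strand polymerase epsilon, neither POLE, within 1.05-fold, nor POLE2, 1.38-fold under shLuc with shMMSET#2 and 1.36-fold above it with shMMSET#4, was called.

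PCNA, the sliding clamp that holds polymerases on DNA, had signals of 10494 with shMMSET#2 and 16634 with shMMSET#4, against 8755 with shLuc (1.20-fold and 1.90-fold higher). Of the clamp loader genes, RFC2 was called higher with both hairpins, with 2729 and 3686, against 1641 with shLuc (1.66-fold and 2.25-fold). RFC4 (1.49-fold with shMMSET#2 and 1.52-fold with shMMSET#4) and RFC5 (1.53-fold and 1.44-fold) lay at the threshold on either side of it. RFC1, the large subunit, and RFC3 were within 1.08-fold and 1.29-fold of shLuc. RPA coats single-stranded DNA. Its smallest subunit gene RPA3 had 13242 and 10216, against 6155 with shLuc (2.15-fold and 1.66-fold higher), RPA2 was 1.21-fold and 1.43-fold above shLuc, and RPA1 was 1.09-fold and 1.25-fold under it on the deposited scale but above it with equal medians (log2 ratios of 0.19 and 0.06).

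Of the genes that finish Okazaki fragments, FEN1, the flap nuclease, had signals of 5701 with shMMSET#2 and 5832 with shMMSET#4, against 2257 with shLuc (2.53-fold and 2.58-fold higher). RNASEH2A, the catalytic subunit of the RNase that removes RNA from DNA, had 2126 and 1532, against 631 with shLuc (3.37-fold and 2.43-fold). LIG1, which seals the nicks, was 1.52-fold and 1.47-fold above shLuc. All 3 were above shLuc on both hairpin arrays. Among genes of nucleotide supply, thymidine kinase TK1 was called higher with both hairpins, with 3401 and 3481, against 1822 with shLuc (1.87-fold and 1.91-fold). The ribonucleotide reductase genes RRM1 (1.57-fold and 1.48-fold) and RRM2 (1.33-fold and 1.41-fold) were above shLuc on both arrays. A second RRM2 probe set was 1.86-fold and 1.96-fold above shLuc.

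TYMS, which encodes the thymidylate synthase that makes dTMP, was the 1 gene called lower with shMMSET#2. Its signal was 11995 with shMMSET#2 and 27579 with shMMSET#4, against 25182 with shLuc, so that shMMSET#2 alone stood apart (2.10-fold lower), and shMMSET#4 was 1.10-fold above shLuc. A second probe set gave 3064 and 8866, against 6427 with shLuc, a log2 ratio of -1.07 with shMMSET#2 and 0.46 with shMMSET#4. The third and dimmest one went the other way, with 114 and 96.9, against 58.7 with shLuc.

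CHAF1A and CHAF1B encode subunits of the chaperone that deposits histones behind the fork. CHAF1B had signals of 215 with shMMSET#2 and 157 with shMMSET#4, against 60.4 with shLuc (3.56-fold and 2.59-fold higher), near the floor on the shLuc array, and CHAF1A was 1.25-fold and 1.58-fold above shLuc. The 3 fork protection genes were called higher with both hairpins. CLSPN, the adaptor that passes the stalled-fork signal to the checkpoint kinase CHEK1, had 247 and 362, against 153 with shLuc (1.62-fold and 2.37-fold). TIMELESS had 3269 and 2997, against 1766 (1.85-fold and 1.70-fold), and its binding partner TIPIN had 2445 and 2301, against 1301 (1.88-fold and 1.77-fold). For this pair the hairpin arrays were within 1.09-fold of each other.

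**Figure D2:**
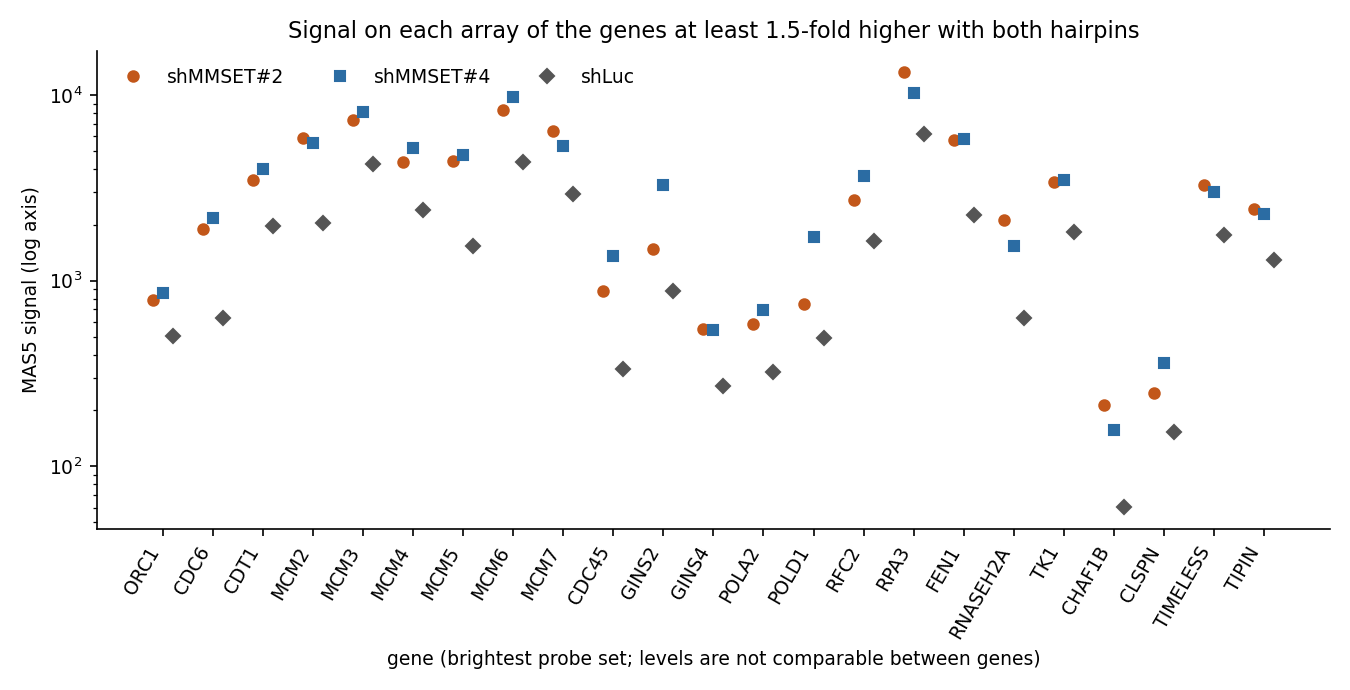
MAS5 signal (log axis) of the brightest probe set on the shMMSET#2 (circles), shMMSET#4 (squares) and shLuc (diamonds) arrays for the 23 genes called higher with both hairpins. The shLuc array is lowest for every gene shown, as the call requires, and the hairpin arrays differ most for GINS2 and POLD1.

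The hairpin arrays were also set against each other directly, which leaves the shLuc array out. The median replication gene lay within 1.18-fold on these arrays, beside 1.28-fold for all genes tested. These medians are not matched for brightness, since 52 of the 53 were above the array median on all arrays. With shMMSET#4, 8 of the 53 were at least 1.5-fold higher than with shMMSET#2, against 16.9% of all genes tested, and 1 was lower, against 13.6%. The share of 8 in 53 is near that background. The 8 were TYMS (2.30-fold), POLD1 (2.29-fold), GINS2 (2.19-fold), POLE2 (1.88-fold), MCM10 (1.68-fold), PCNA (1.59-fold), POLD2 (1.57-fold) and CDC45 (1.54-fold), and the lower gene was GINS1 (1.59-fold). Over all genes tested, dim ones included, 95% lay within 2.37-fold on these arrays, and no replication gene was past that. Of the 53, 35 were among the brightest 30% of tested genes, of which 95% lay within 1.98-fold. TYMS and GINS2, both in that brightest 30%, were past 1.98-fold. POLD1 was dimmer and not in it, so its 2.29-fold is not set against 1.98-fold. For NSD2 itself, each of the 6 probe sets was brighter on the shMMSET#4 array than on the shMMSET#2 array.

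**Figure D3:**
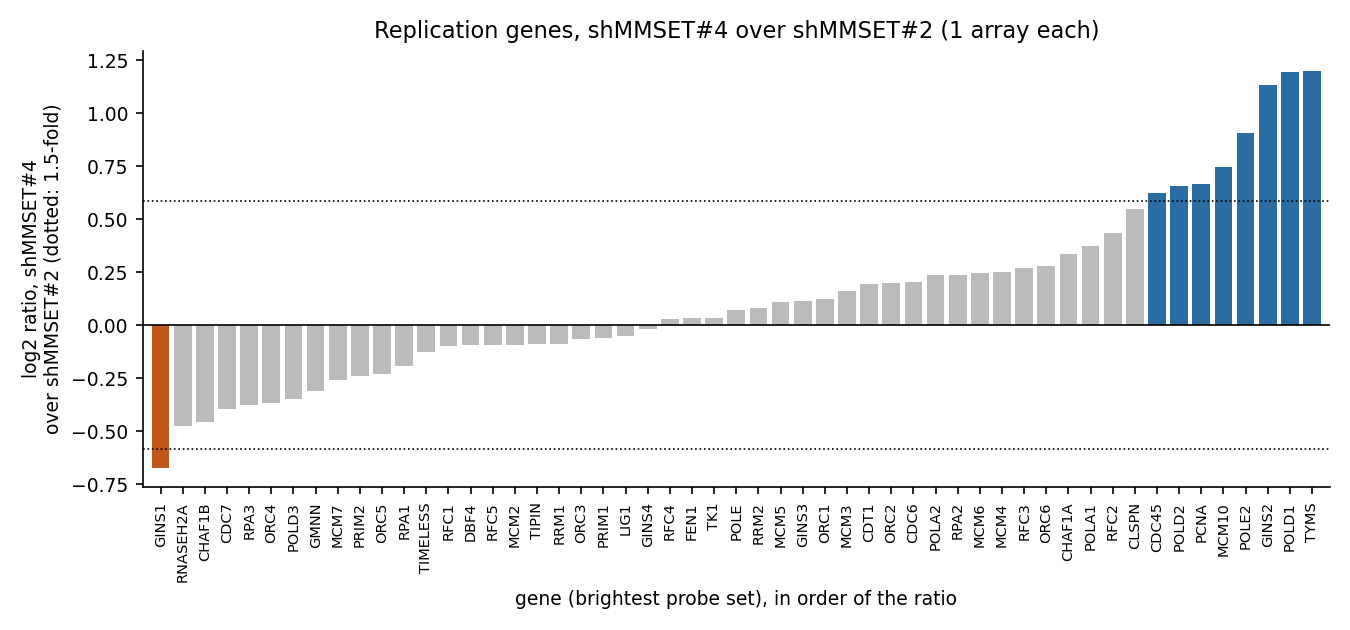
Log2 ratio of shMMSET#4 over shMMSET#2 for the 53 genes in order of the ratio, with 1 array per hairpin and dotted lines at 1.5-fold. Blue bars are the 8 genes past the line on the shMMSET#4 side, from CDC45 to TYMS, and the orange bar is GINS1.

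The other probe sets of the same genes were used as a check. There were 99 probe sets in all, and 28 genes had more than 1. Of the 23 genes called higher with both hairpins, 14 had another probe set, and for 8 of these (CDC6, MCM4, MCM5, MCM7, GINS2, RFC2, FEN1 and TK1) at least 1 other was at least 1.5-fold higher with both too. MCM4 had 3 such probe sets, with log2 ratios between 1.26 and 1.83 over both hairpins. For 5 genes a probe set went the opposite way from the brightest at 1.5-fold or more with a hairpin, namely GINS4, CLSPN, RFC3, POLD3 and TYMS. In POLA2, the other 2 probe sets, both dim, had log2 ratios of -0.39 and -0.41 with shMMSET#2 and -0.17 and -0.40 with shMMSET#4, so that its call rests on a single probe set. RFC5, not called with both on its brightest probe set, had log2 ratios of 1.95 and 1.46 on a second. The brightest probe sets of CDT1, ORC6 and RFC1 end in _x_at, which marks probes that may bind other transcripts.

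**Figure D4:**
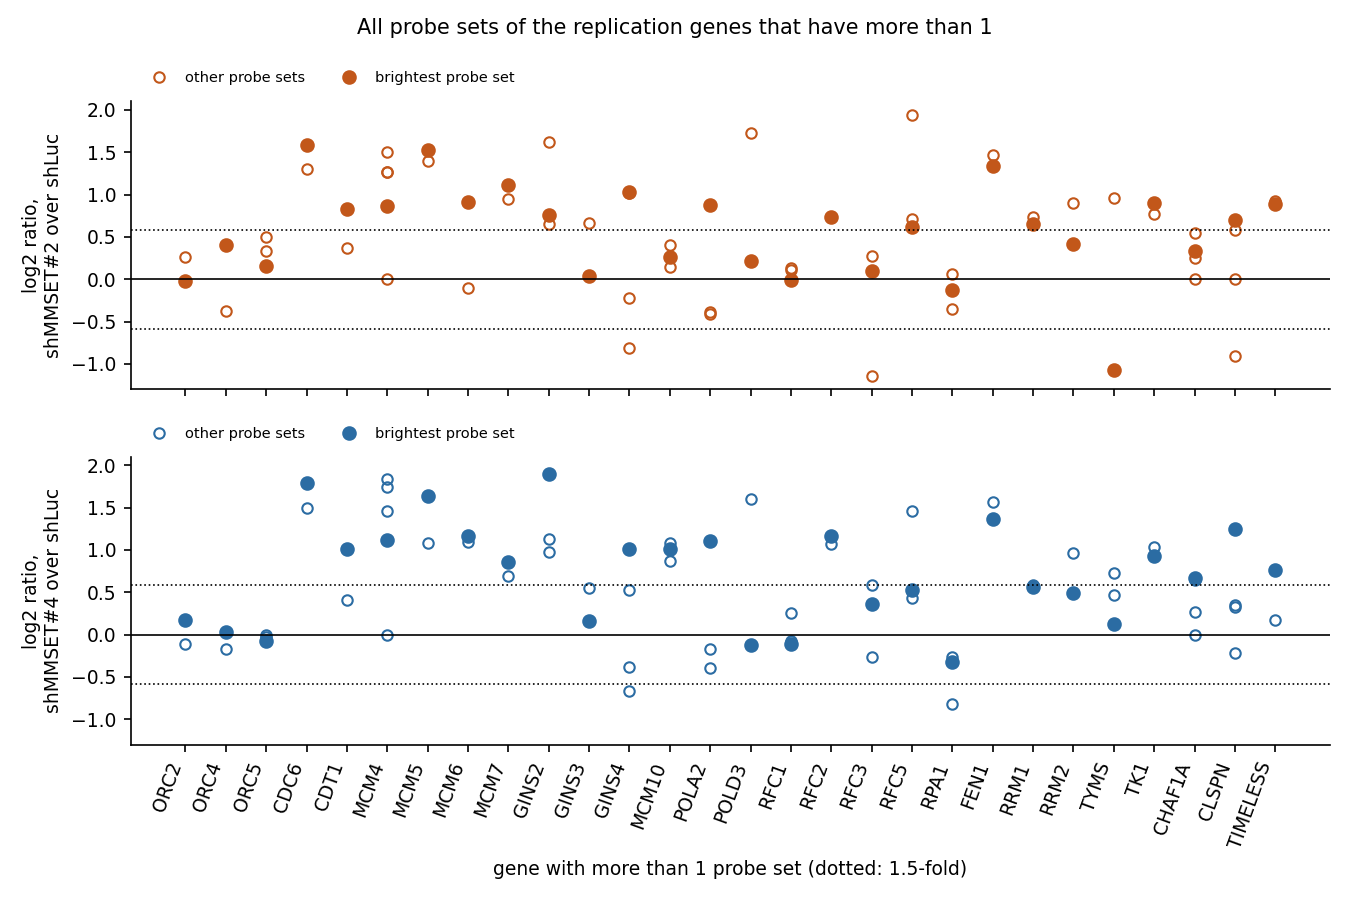
Log2 ratio over shLuc of every probe set of the 28 genes with more than 1, with shMMSET#2 above and shMMSET#4 below. Filled points are the brightest probe set and open points the others. MCM4, MCM5, CDC6 and FEN1 have 2 or more points past the upper dotted line (1.5-fold), whereas POLA2, GINS4 and CLSPN have points on both sides of 0.

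Genes next to this machinery were counted in the same way. Of 29 other replisome and origin factors, 9 were called higher and 1 lower with shMMSET#2, and 10 higher and 1 lower with shMMSET#4, with medians of 0.48 and 0.42 on the log2 scale. Among them were UHRF1, which brings DNMT1 to replicated DNA (2.07-fold and 2.49-fold higher), the nuclease-helicase gene DNA2 (1.92-fold and 2.16-fold), the polymerase epsilon subunit gene POLE3 (1.80-fold and 2.60-fold) and the RNase H2 subunit gene RNASEH2C (1.89-fold and 2.65-fold, while its dim other probe set had a log2 ratio of -1.51 with shMMSET#2). Of 11 S phase kinases and licensing regulators, 4 were called higher and 2 lower with shMMSET#2, and 6 higher and 0 lower with shMMSET#4. They included CDK2 (1.51-fold and 1.80-fold higher), the phosphatase gene CDC25A (1.53-fold with each hairpin), DTL, which marks CDT1 for degradation (1.42-fold and 1.55-fold), and CUL4A, the scaffold of that ligase (2.49-fold and 2.58-fold, with a dimmer probe set at -0.64 and -1.24 on the log2 scale). Chosen after their values were seen, the lower ones with shMMSET#2 were CCNE2 (4.38-fold lower, and 1.09-fold above shLuc with shMMSET#4) and SKP2 (2.29-fold lower, and 1.41-fold under shLuc with shMMSET#4). CCNE1, like CCNE2 a cyclin E gene of this list, was 1.41-fold above shLuc with shMMSET#2 and 3.11-fold higher with shMMSET#4.

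Of 10 other nucleotide supply genes, 2 were called higher and 1 lower with each hairpin. These were GMPS (2.30-fold with shMMSET#2 and 1.93-fold with shMMSET#4) and CTPS1 (1.61-fold and 1.68-fold), both higher, and the mitochondrial thymidine kinase TK2 (2.28-fold and 1.89-fold lower). DCTPP1 was 1.46-fold and 1.40-fold above shLuc. Of 8 fork checkpoint genes, 3 were called higher and 1 lower with shMMSET#2, and 2 higher and 1 lower with shMMSET#4. ATR, the kinase that responds to stalled forks, was 1.59-fold and 1.67-fold higher, its activator ETAA1 was 1.52-fold and 1.82-fold lower, CHEK1 was 1.21-fold and 1.68-fold above shLuc, and RAD1 was 1.20-fold and 1.36-fold above it. Of the 20 G2/M and mitosis genes, 1 was called higher and 3 lower with shMMSET#2, and 1 higher and 4 lower with shMMSET#4. These shares of lower genes did not exceed the 22.5% and 20.6% of all genes tested. The G2/M list had medians of -0.12 and -0.18 that differ from the 0.62 and 0.66 of the replication genes. Without replicates that difference was not tested, and with equal array medians the G2/M medians were 0.20 and 0.21, beside 0.94 and 1.04. MAD2L1 was higher (2.28-fold and 2.61-fold), KIF2C (1.71-fold and 1.87-fold) and CENPE (1.61-fold and 2.02-fold) were lower on the deposited scale, and TOP2A was 1.32-fold and 1.55-fold lower than shLuc. With equal array medians CENPE was the 1 of these lower genes past 1.5-fold, with shMMSET#4 alone.

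**Figure D5:**
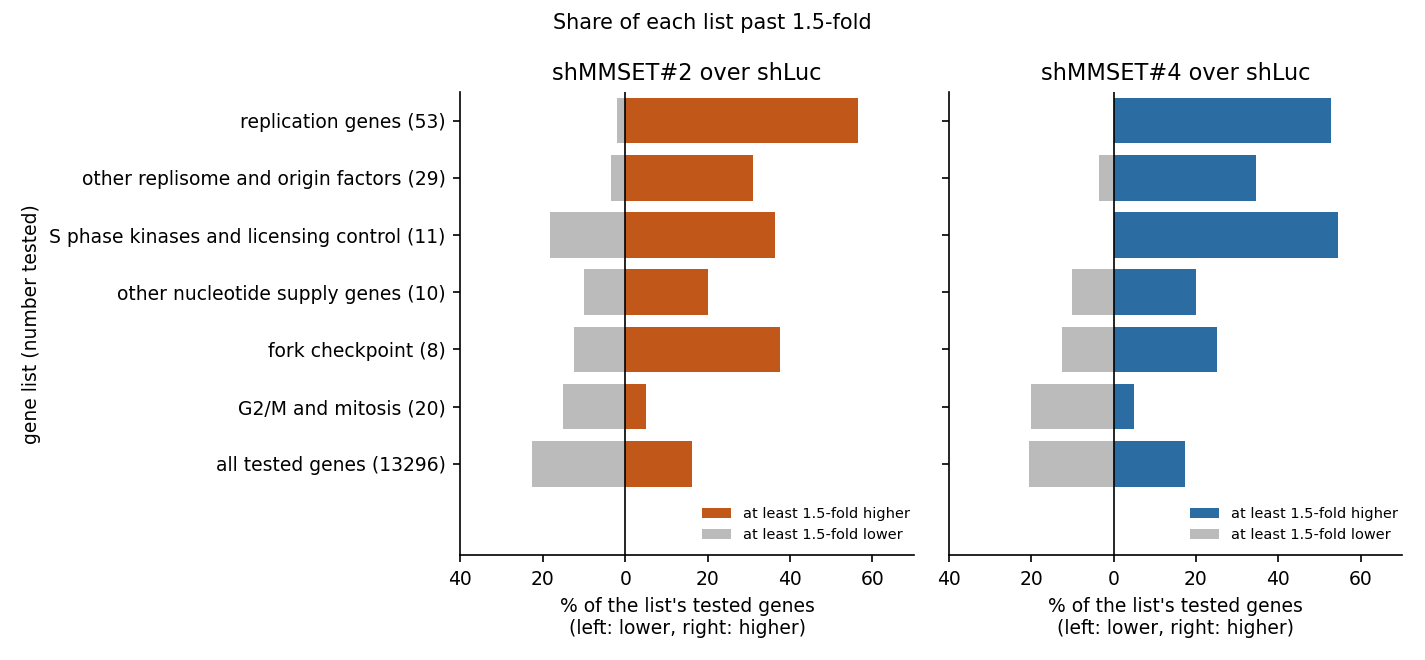
Percent of the tested genes of each list at least 1.5-fold higher (coloured, right of 0) or lower (grey, left of 0) than shLuc, with shMMSET#2 in the left panel and shMMSET#4 in the right. The replication genes reach 56.6% and 52.8% higher, beside 16.2% and 17.3% of all genes tested, and the G2/M list 5.0% with each hairpin.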

How the data were processed

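RNA from 3 KMS11 cultures, 1 per hairpin and grouped by the source labels, was hybridised to Affymetrix arrays. The deposited intensities are linear signals per probe set, for which the submitters' processing notes name MAS5 and the design text names GeneSpring, and the sources used here do not give their versions or settings. That text names an earlier array type, whereas the 54675 probe set identifiers are those of HG-U133 Plus 2.0. The 2% trimmed mean was 500.1 on each array, so the authors' scaling was kept. The fixed trimmed mean ties all signals of an array together, and dim signals are noisy.

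After removal of 62 control probe sets, a single symbol was found for 41091 in the platform annotation, updated by Entrez identifier against the RefSeq table of GRCh38.p14. Lower signals were set to 41.2, the 40th percentile over the 3 arrays, before taking log2. Of 19775 genes, the 13296 above the array median on at least 1 array are called tested, and no statistical test was run. The call was 1.5-fold, and Python 3.11.15, numpy 2.4.6 and pandas 2.3.3 were used. The steps were tested on simulated data. All 53 genes are accounted for, and of each neighbouring list the 4 genes with the largest smaller ratio of like sign are named. The gene set, the lists and the alternatives were chosen with earlier results of these data known.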

Additional observations from a re-analysis of the deposited data

How the results depend on the processing

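Of the 53 genes, 23 were called higher with both hairpins as reported, and 16 to 34 over the alternative scalings, floors, filters and choices of probe set, 12 of them in every one of these. The low of 16 comes from using no _x_at or _s_at probe sets, which kept 40 genes. Under that choice the share over all genes tested was 8.10%. CDC45, CDT1, FEN1, MCM2 and MCM7 have no other kind of probe set, so they had no value there and are absent from the 16 and the 12. The high of 34 comes from scaling to the same median signal, under which the share over all genes tested was 19.7%, beside 8.6% as reported. That scaling moved the medians to 0.94 with shMMSET#2 and 1.04 with shMMSET#4, and the median ratio over all probe sets moved the shMMSET#4 median to 0.56. At a 2-fold call, 11 were higher with shMMSET#2 (5.69% of all genes tested), 17 with shMMSET#4 (6.74%) and 8 with both (2.83%), and 3 were higher (6.60%) and 0 lower (3.72%) with shMMSET#4 than with shMMSET#2. With the mean over all probe sets 0 genes were lower with shMMSET#2 (17.6% of all genes tested), since the dim TYMS probe set enters. With no _x_at or _s_at probe sets 2 were lower on the shMMSET#4 array than on the shMMSET#2 array (15.6%). POLA2 reversed to log2 ratios of -0.41 and -0.40 without _x_at and _s_at probe sets and to -0.39 and -0.17 with the median ratio over probe sets. CUL4A reversed to -0.64 and -1.24 without those probe sets, and RNASEH2C with shMMSET#2 to -0.30 with the mean or the median over probe sets. Of 1557 recomputed log2 ratios of the 53 genes, 35 moved by more than 0.44. That is the standard deviation over tested genes of the log2 ratio between the hairpin arrays, divided by the square root of 2. Another 4, all of POLA2 and past 1.5-fold as reported, reversed. A further 46 that were within 1.5-fold changed sign. Shifting the median of all tested genes to 0, an alternative chosen after the data were seen, gave 25 genes higher with both (9.27% of all genes tested). No paired analysis was possible because each group has 1 array. The number of arrays limits every value, and signals near the floor, such as that of CHAF1B with shLuc, are the least certain.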
